A study of Mus musculus with 106 samples.

Results

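Mbp, Nefl, Nefm, Nes and Fabp7 are 5 genes whose names come from the nervous system, followed here in single cells of the mouse embryo on the way from epiblast to germ cells. They were taken by gene symbol and make up 5 of the 18193 genes measured, read by 15 of the 45101 probe sets of the array. The choice was made with earlier values of these arrays known: the high Mbp and the low Nefl of late primordial germ cells (PGCs) relative to epiblast had been seen before. Contrasts between those groups are therefore given as a description. PGCs are the embryonic founders of sperm and eggs.

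The series holds arrays in 11 groups, each array made from the amplified cDNA of 1 cell of a C57BL/6 embryo. The genotypes were Blimp1 (-/-) cells, which lack the transcriptional repressor encoded by Prdm1, and wild-type cells. The labels name no embryo, litter or pool, so a group counts as 1 sample, cells are not replicates of a condition, and no test was run. The SD and the counts of cells describe spread between cells only.

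Blimp1 (-/-) cells were chosen by a transcript of the null allele together with Oct4, with 20 cells from Late-Streak/0-Bud embryos (LS/0B) and 12 from Early/Mid-Bud embryos (E/MB). The wild-type lineage began with 8 posterior epiblast cells of the pre-streak (PS) stage with Oct4 and T. It went on with PGC precursors holding Blimp1 and Oct4, 7 at Early/Mid-Streak (E/MS) and 17 at LS/0B. PGCs, chosen by Blimp1 and stella (Dppa3), numbered 8 at E/MB, 8 at the Early-Head Fold (EHF) stage and 8 at embryonic day 8.25 (E8.25). Cells with Blimp1 and Hoxb1, called Blimp1+ Hoxb1+ cells, numbered 4 at E/MB and 4 at EHF. Their source label gives Oct4+ at E/MB and Oct4 without a sign at EHF. The EHF cells of this class are labelled EHF in their source and description and E/MB in their title. Posterior mesoderm, 10 cells from the base of the allantois at E/MB, had Oct4 and Hoxb1 without Blimp1. Genes used to choose cells are no findings between the groups chosen by them.

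Mbp encodes myelin basic protein, which compacts the myelin sheath of oligodendrocytes and Schwann cells. The same locus also makes the longer Golli transcripts, which are known outside the nervous system. Nefl and Nefm encode the light and medium neurofilament proteins, intermediate filament subunits that set the calibre of large axons. Their genes are neighbours in the GRCm38.p6 gene table, with 1 predicted gene, Gm19216, between them. Nes encodes nestin, an intermediate filament protein of neural stem cells that is also made in other dividing cells, including somitic and vascular ones. Fabp7 encodes the brain fatty acid binding protein, known from radial glia.

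Values are MAS5 signals, a linear array intensity. A gene counted as detected in a cell when its signal passed the 95th percentile of 126 background probe sets in that cell, a limit between 82.8 and 166 (median 120). For means and differences, signals below 70.2 were raised to that floor, which is 6.13 on the log2 scale. A signal under the limit does not show that the transcript was absent, since amplification from 1 cell can lose rare transcripts. Between 8981 and 14502 probe sets were detected per cell. The number detected at the stricter 99th percentile averaged 9581 ± 759 in E8.25 PGCs, 7483 ± 979 in E/MB knockout cells and 8731 ± 1288 in PS epiblast (SD over cells). All 7 germ cell markers listed, of which Dppa3 and Prdm1 (Blimp1) were used to choose PGCs, were found in at least some cells of each PGC stage, and their summed signal ran from 12474 to 18260 over the 24 PGCs, against 224 to 1404 in PS epiblast. Hybridisation controls were brighter in mesoderm arrays (11.07 ± 0.33, n = 10) than in the other 96 (9.61 ± 0.28, log2 signal, SD). Abca4 was detected in 0 of 20 and 1 of 12 knockout cells and in every cell from PS epiblast to E8.25 PGCs, and Ppp2cb in 19 of 20 and 11 of 12 knockout cells and 0 of 8 PS epiblast cells, so sets of arrays differ in genes other than the 5 followed here. In Blimp1+ Hoxb1+ cells Abca4 was in 0 of 4 at either stage and Ppp2cb in 4 of 4 at either stage; mesoderm had Abca4 in 6 of 10 and Ppp2cb in 8 of 10 cells, and LS/0B precursors had Ppp2cb in 6 of 17. The part of such differences in the comparisons with knockout, Blimp1+ Hoxb1+, mesoderm and LS/0B precursor cells was not tested.

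Mbp was detected in PGCs and in some LS/0B precursors, and in no cell of the other groups. Its brightest probe set, 1425264_s_at, passed the limit in 25 cells, of which 22 were PGCs and 3 were LS/0B precursors. It passed in 0 of the 65 cells of the other groups, where the highest signal was 21.3; 0 of 65 allows a share of up to 4.62%, taken as 3 counts of the total. Such limits, and the intervals given for shares, cover counting error only.

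Along the lineage, Mbp signals lay between 4.67 and 14.4 in the 8 PS epiblast cells and between 1 and 14.7 in the 7 E/MS precursors. Among 17 LS/0B precursors the lowest was 4.32, the median 10.05 and the highest 468. The E/MB PGCs held signals of 104, 1921, 331, 942, 627, 202, 769 and 12.2, of which the first and the last did not pass the limit. All 8 EHF PGCs were high, with a lowest signal of 889, a median of 1484 and a highest of 2673. All 8 E8.25 PGCs were high too, from 1055 through a median of 1686 to 2712. Cells above and below the limit were thus found at both LS/0B and E/MB, and every EHF and E8.25 PGC was above it. The limit parts close values: the E/MB PGC at 104 lay below its own limit, and an LS/0B precursor at 106.1 above its own.

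Mean log2 signal of Mbp was 10.65 ± 0.47 in E8.25 PGCs, against 6.13 in PS epiblast, where every cell was at the floor (SD, n = 8 each). The difference of 4.52 is set in part by the floor, and was 7.58 with no floor and 2.48 with a floor of 287, the median of the 99th percentile limits. The fold, taken against the detection limits of the epiblast cells, was at least 12.2-fold higher. Xist, the X inactivation RNA, was detected in 8 of 8 PS epiblast cells and in no E/MS precursor or E8.25 PGC. Differences of either group from PS epiblast, in all 5 genes, thus cannot be told apart from Xist status. In the order of group means, E8.25 PGCs and EHF PGCs (10.52 ± 0.54) differed by less than the spread between cells. EHF PGCs stood above E/MB PGCs (8.57 ± 1.65), and these above LS/0B precursors (6.47 ± 0.87), by more than the pooled SD of each pair. LS/0B precursors did not stand apart from the 7 groups at the floor.

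**Figure D1:**
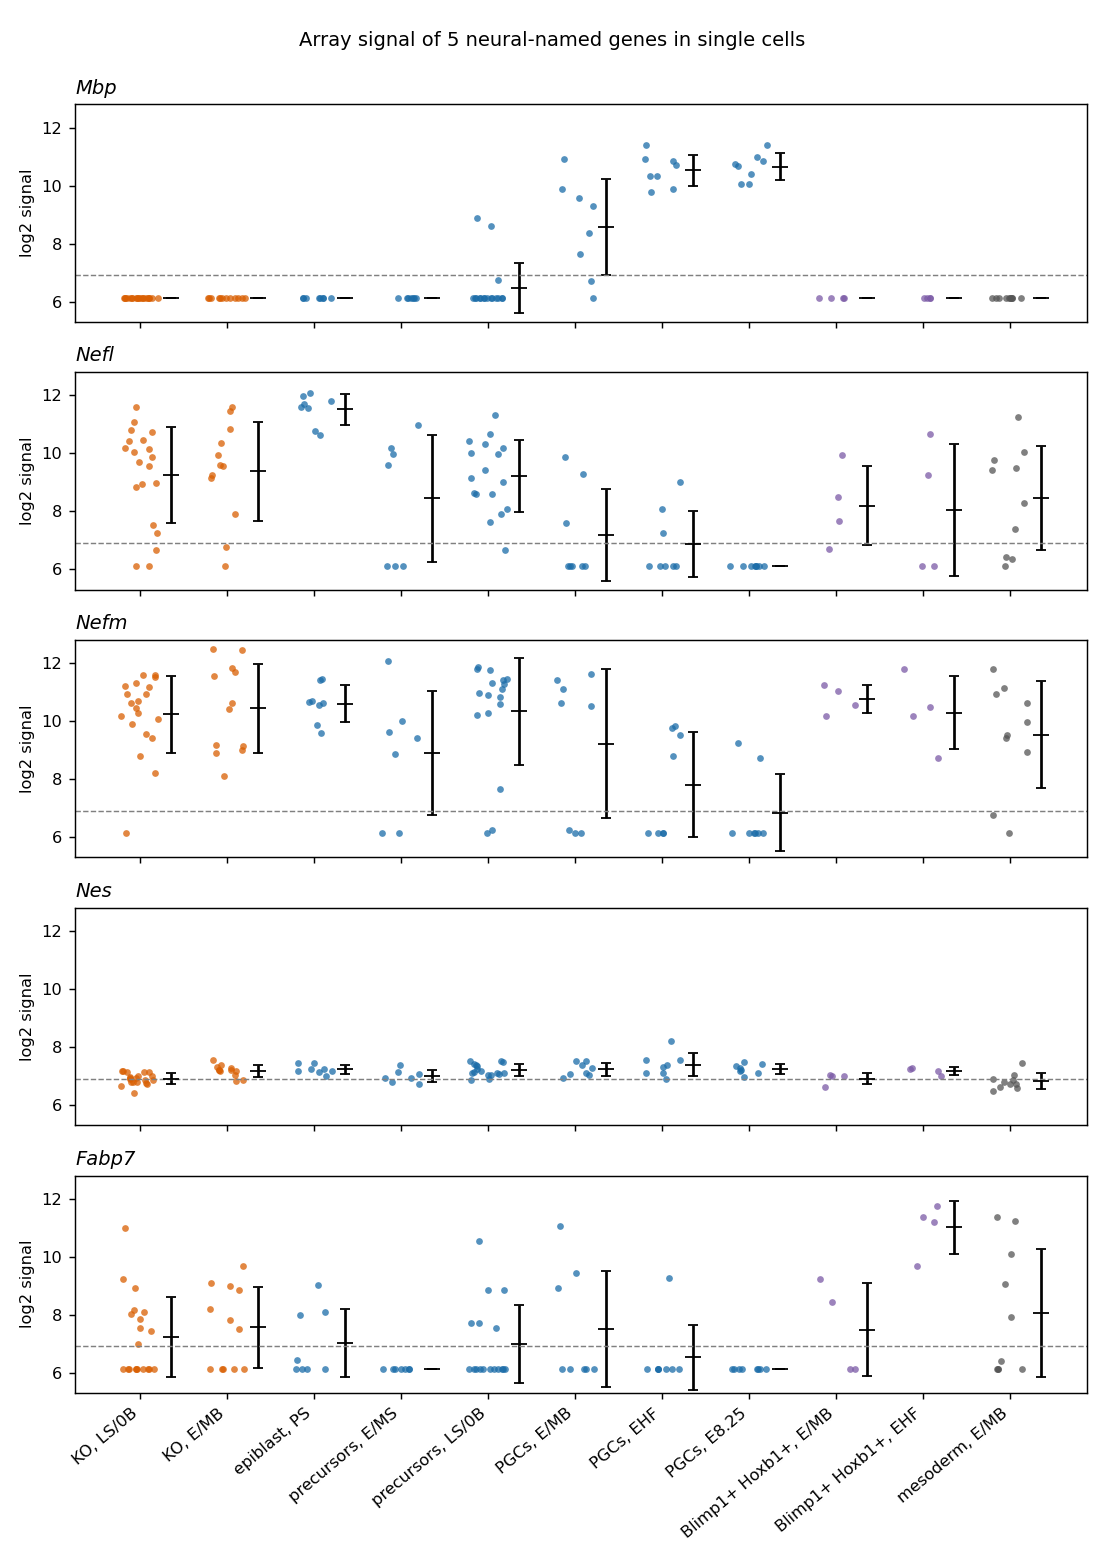
Array signal of the 5 genes in each cell (log2 of the floored signal, y axis) by group (x axis; KO is Blimp1 (-/-)). Points are cells, black bars the mean and SD over cells, and the dashed line the median detection limit of 120. Mbp is above the limit in 22 PGCs and 3 LS/0B precursors. Nefl and Nefm are lower in E8.25 PGCs than in PS epiblast, without a steady fall between them. Nes is nearly flat, and Fabp7 is high in every EHF Blimp1+ Hoxb1+ cell.

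The 3 LS/0B precursors with Mbp were replicates 20, 22 and 24, at signals of 468, 106.1 and 391. Dppa3, Prdm14, Sox2, Dnd1 and Tfap2c, genes of germ cell specification and pluripotency, were each detected in all 3 of these cells, and Hoxb1, a posterior mesoderm gene, in 0 of 3. In the 14 precursors without Mbp the same genes were found less evenly: Dppa3 in 5, Prdm14 in 8, Sox2 in 4, Dnd1 in 9, Tfap2c in 7 and Hoxb1 in 11 cells. Replicates 18 and 19 had all 5 germ cell genes and no Hoxb1, yet Mbp signals of only 15.3 and 12.1. All 3 cells with Mbp also carried Xist, as did 5 of the 14 without Mbp. Among E/MB PGCs the 2 cells without Mbp by the brightest probe set, replicates 1 and 8, had every germ cell gene just named. Replicate 1 did pass with another Mbp probe set, 1425263_a_at, at a signal of 792.

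The other 7 Mbp probe sets passed in fewer cells. Probe set 1425263_a_at passed in 3 E/MB, 5 EHF and 1 E8.25 PGCs, with signals up to 1050. Probe set 1456228_x_at passed in 5 PGCs, 1433532_a_at in 4 and 1419646_a_at in 2. The remaining probe sets, 1436201_x_at, 1451961_a_at and 1454651_x_at, passed in no cell. No probe set of Mbp passed in any cell outside the LS/0B precursors and PGCs. The E8.25 PGC minus PS epiblast difference was 4.52 with the brightest probe set and between 0.00 and 0.31 with each of the others, so it rests on that probe set. The transcript form each probe set reads is not given in the sources used here, and probe sets are not compared in level.

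**Figure D2:**
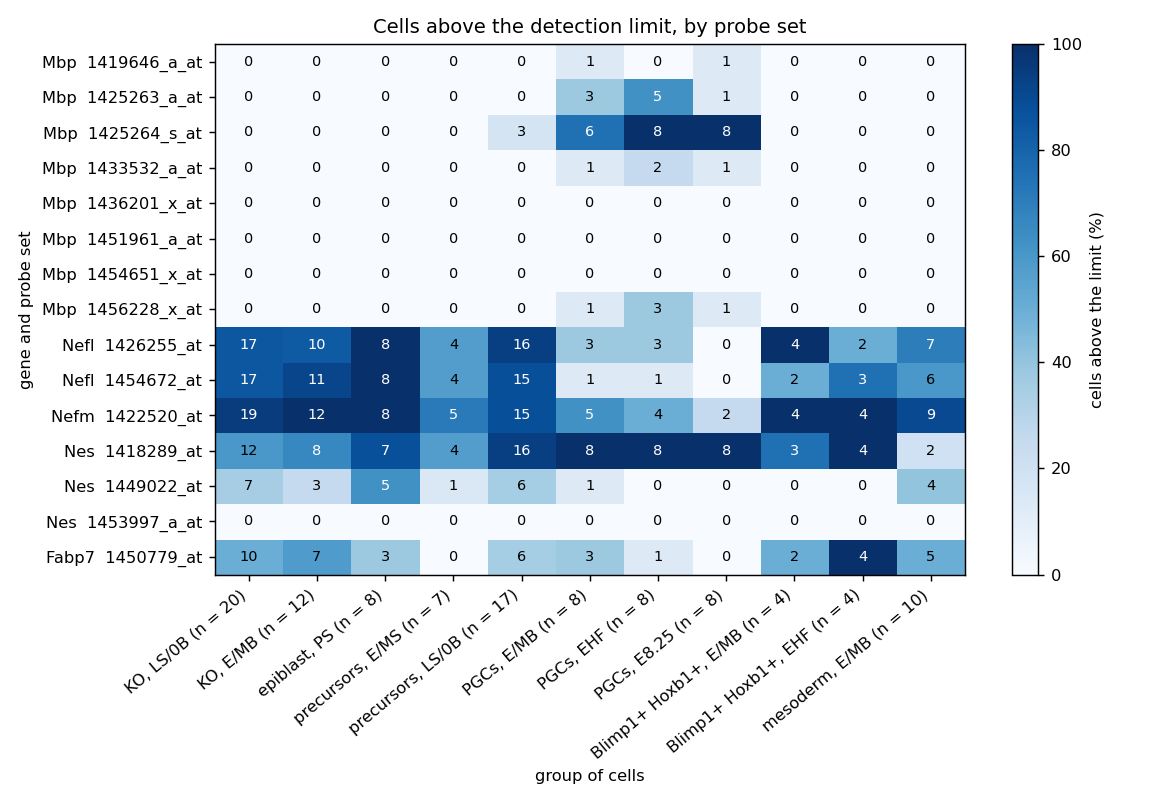
Number of cells above the detection limit for each of the 15 probe sets (rows) in each group (columns; group sizes in the labels), coloured by the share of cells in percent. Mbp counts are nonzero in PGC columns and, for 1 probe set, LS/0B precursors, and the 2 Nefl probe sets give like counts in the knockout, epiblast and precursor columns.

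Nefl was the reverse of Mbp at the ends of the lineage, high in PS epiblast and under the limit in E8.25 PGCs. Its main probe set, 1426255_at, passed in 74 cells. In PS epiblast signals were 3127, 1768, 4361, 1600, 3012, 4084, 3589 and 3346. E/MS precursors split into 4 cells between 774 and 2034 and 3 between 24.97 and 49.9. At LS/0B 16 of 17 precursors passed, with a lowest signal of 102, a median of 571 and a highest of 2541. In E/MB PGCs the signals were 948, 33.6, 31.8, 194, 622, 37.7, 25.5 and 32.4, so 3 of 8 passed. EHF PGCs likewise had 3 of 8, at 269, 153 and 514, with the other 5 between 27.7 and 35.0. In E8.25 PGCs none of 8 passed, and all lay between 28.1 and 35.5.

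E8.25 PGCs were thus below every PS epiblast cell for Nefl, at a mean of 6.13 (all at the floor) against 11.53 ± 0.53 (SD, n = 8 each). The difference of -5.39 is likewise set in part by the floor (-6.52 with none, -3.36 with the higher one), and Nefl was at least 24.1-fold lower. With the second probe set, 1454672_at, the difference was -4.02 and 0 of 8 E8.25 PGCs passed, against 8 of 8 PS cells. This probe set passed in 1 of 8 E/MB and 1 of 8 EHF PGCs, fewer than the 3 of 8 of the main one at each stage. The 2 probe sets passed together in 61 cells, singly in 13 and 7, and neither passed in 25, and their log2 signals correlated at r = 0.71 over all cells, a description without a test.

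Outside the PGCs Nefl was common. Knockout cells passed in 17 of 20 at LS/0B (9.26 ± 1.66) and 10 of 12 at E/MB (9.38 ± 1.72), and mesoderm in 7 of 10 (8.46 ± 1.80). The Blimp1+ Hoxb1+ cells had signals of 360, 203, 992 and 104 at E/MB and of 1626, 616, 21.6 and 30.2 at EHF. In the order of group means PS epiblast stood above all others by more than the pooled SD, and no 2 neighbours below it differed beyond their spread.

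Nefm, read by 1 probe set, passed in 87 cells and was found in more PGCs than Nefl. PS epiblast cells ranged from 776 through a median of 1603 to 2799. E/MS precursors passed in 5 of 7, between 470 and 4269, with the other 2 at 4.45 and 5.78. LS/0B precursors passed in 15 of 17, with a median of 1985 and a highest signal of 3729. E/MB PGCs had 2192, 9.84, 1476, 3177, 2725, 11.2, 76.6 and 1586, a split into 5 high and 3 low cells. EHF PGCs had 4 cells between 450 and 923 and 4 at or under 9.44. In E8.25 PGCs 2 cells, at 610 and 424, passed and the other 6 lay between 1 and 32.1.

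The E8.25 PGCs averaged 6.85 ± 1.33 for Nefm, against 10.61 ± 0.65 in PS epiblast (SD, n = 8 each), a difference of -3.76 with no overlap between the groups. Nefm was also present in 19 of 20 LS/0B knockout cells (10.23 ± 1.34), 12 of 12 E/MB knockout cells (10.45 ± 1.54), all 8 Blimp1+ Hoxb1+ cells (429 to 3558) and 9 of 10 mesoderm cells (9.53 ± 1.85). No neighbouring group means of Nefm differed by more than their pooled SD.

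**Figure D3:**
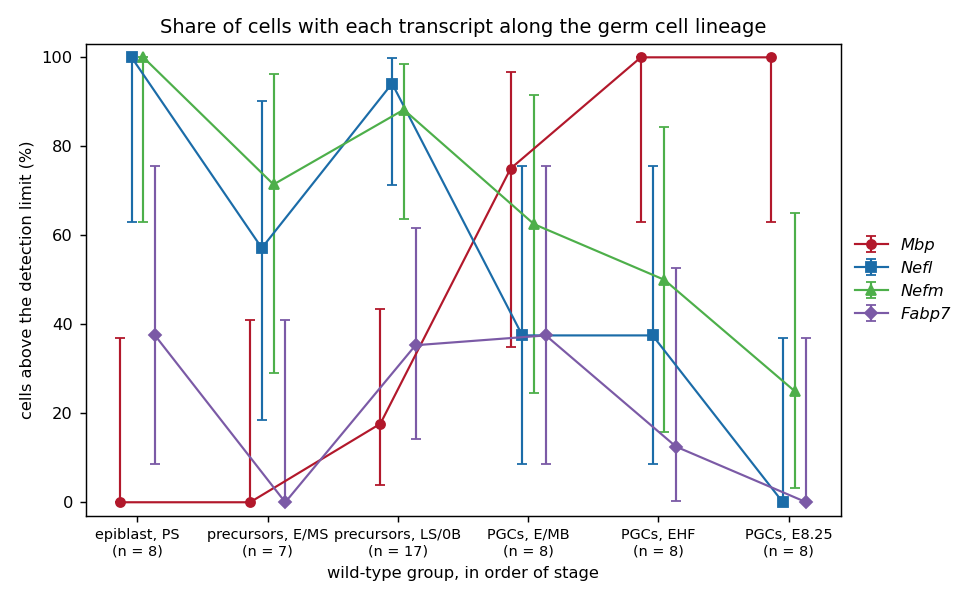
Share of cells above the detection limit (percent, y axis) for Mbp, Nefl, Nefm and Fabp7 in the 6 wild-type groups in order of stage (x axis), with exact 95% binomial intervals that cover counting error only. Mbp is in 0 of 8 PS and 8 of 8 E8.25 cells, while Nefl is in 8 of 8 PS and 0 of 8 E8.25 cells; the intervals of neighbouring stages overlap.

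In the E8.25 PGC minus PS epiblast contrast, 1 of the 5 genes was higher by at least 1 log2 unit, as were 4.9% of all genes, and 2 were lower, as were 5.12%. Their groups did not overlap, which held for 0.594% of all genes in the upward and 0.682% in the downward direction. Since these values took part in choosing the genes, nothing is read from those counts. The median difference over all genes was 0.

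Stage by stage, E/MS precursors were lower than PS epiblast in Nefl (-3.08) and Nefm (-1.72), 2 of 5 genes beside 2.94% of all genes lower by at least 1 unit. LS/0B precursors were higher than E/MS precursors in Nefm (1.45), 1 of 5 beside 1.48%, and this was 0.99 without E/MS replicate 3 or 7. E/MB PGCs were higher than LS/0B precursors in Mbp (2.09), 1 of 5 beside 2.96%, and lower in Nefl (-2.03) and Nefm (-1.12), 2 of 5 beside 2.66%. The Nefm value was -0.67 without E/MB PGC replicate 2 or 6 and -0.69 without replicate 7, and -0.38 between medians. With the higher floor the 3 values were 0.83 for Mbp, -0.83 for Nefl and -0.63 for Nefm. As the mean of all probe sets the Mbp value was 0.49. EHF PGCs were higher than E/MB PGCs in Mbp (1.96), 1 of 5 beside 1.92%, and lower in Nefm (-1.42), 1 of 5 beside 2.25%. That Mbp value was 0.34 as the mean of all probe sets. E8.25 PGCs differed from EHF PGCs by under 1 unit in all 5 genes, where 1.71% of all genes were higher and 1.53% lower. With the Mbp probe set 1425263_a_at, however, this difference was -1.40, with 1 of 8 E8.25 and 5 of 8 EHF PGCs passing. Consecutive steps both use the cells of the stage between them, so they are not independent of each other. LS/0B precursors were chosen by Blimp1 and Oct4 and E/MB PGCs by Blimp1 and stella. Stage and choice of cells cannot be told apart in that step. The same holds for the step from PS epiblast, chosen by Oct4 and T, to E/MS precursors.

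Nefl and Nefm were often found in the same cell. Over all groups, 70 cells had both, 4 had Nefl alone, 17 had Nefm alone and 15 had neither. Their log2 signals correlated at r = 0.63 over all cells, and at r = 0.51 once each group was centred on its own mean. Within groups r was 0.73 in 20 LS/0B knockout cells, 0.75 in 12 E/MB knockout cells, 0.35 in 17 LS/0B precursors and 0.14 in 10 mesoderm cells. Cells of 1 group share stage and possibly embryo, so these are descriptions.

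**Figure D4:**
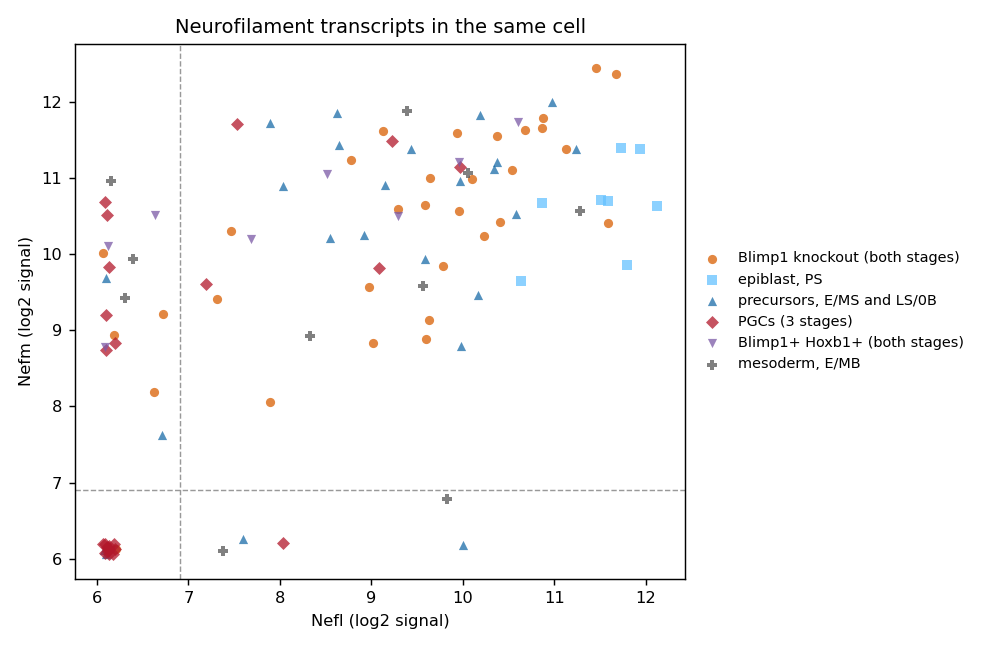
Nefl (x axis) against Nefm (y axis) in each cell, as log2 of the floored signal; symbols mark classes of cells, dashed lines the median detection limit, and points are shifted by up to 0.08 units so that cells at the floor can be seen. PS epiblast cells lie at the upper right, and 3 E/MB, 3 EHF and 6 E8.25 PGCs pass for neither gene.

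Mbp and neurofilament transcripts were not exclusive in a cell. Of 25 cells with Mbp by its brightest probe set, 8 also had Nefl and 12 also had Nefm. All 3 LS/0B precursors with Mbp had both neurofilament genes. Among the 6 E/MB PGCs with Mbp, 2 had Nefl and 3 had Nefm; among the 8 EHF PGCs, 3 and 4; among the 8 E8.25 PGCs, 0 and 2. Within E/MB PGCs the correlation of Mbp with Nefl was -0.15 and with Nefm -0.33 over 8 cells, too few to describe a trend.

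Nes gave an almost flat signal. Its brightest probe set, 1418289_at, lay between 85.4 and 294 in every cell, close to the limit, so that 80 cells passed it but only 2, both EHF PGCs, passed the stricter limit. The SD over all cells was 0.28 log2 units, and 3.70% of the broadly detected genes varied less. Group means ran from 6.81 ± 0.28 in mesoderm to 7.39 ± 0.40 in EHF PGCs. Neighbours in the order of means differed by less than their pooled SD, except EHF Blimp1+ Hoxb1+ cells (7.17 ± 0.13) and E/MS precursors (6.99 ± 0.22), whose gap of 0.18 was just above it. It passed in 24 of 24 PGCs, 20 of 32 knockout cells and 2 of 10 mesoderm cells, with signals close to the limit in all of them. A signal this close to background carries little information on the level of the transcript.

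The second Nes probe set, 1449022_at, varied far more and did not follow the first (r = -0.005 over all cells). It passed in 27 cells, with signals up to 553. By stage along the lineage it passed in 5 of 8 PS epiblast cells, 1 of 7 E/MS and 6 of 17 LS/0B precursors, 1 of 8 E/MB PGCs and none of the 8 EHF or 8 E8.25 PGCs. It also passed in 7 of 20 LS/0B and 3 of 12 E/MB knockout cells, 4 of 10 mesoderm cells and 0 of 8 Blimp1+ Hoxb1+ cells. Between E8.25 PGCs and PS epiblast the difference was 0.01 with the first probe set and -1.24 with the second, so the 2 readings of Nes disagree. The third, 1453997_a_at, passed in no cell.

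Fabp7 was scattered over most groups and passed in 41 cells. PS epiblast held it in 3 of 8 cells (523, 276 and 256), E/MS precursors in 0 of 7, LS/0B precursors in 6 of 17 and E/MB PGCs in 3 of 8 (699, 2113 and 489). In EHF PGCs 1 cell of 8 passed, replicate 3 at 614, with the other 7 between 1 and 15.2, and in E8.25 PGCs 0 of 8, with a highest signal of 10.01. Knockout cells passed in 10 of 20 at LS/0B (median 67.1, highest 2033) and 7 of 12 at E/MB (median 203, highest 823). Mesoderm split into 5 cells between 240 and 2658 and 5 at or under 84.0. The E/MB Blimp1+ Hoxb1+ cells had 1.03, 607, 344 and 7.09.

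The Blimp1+ Hoxb1+ cells taken as EHF, whose titles say E/MB, were all high for Fabp7, at 2654, 828, 2370 and 3459, a mean of 11.01 ± 0.91 (SD, n = 4). Set against them, EHF PGCs averaged 6.52 ± 1.11 (n = 8), a difference of -4.48 with no overlap. Since 7 of the 8 EHF PGCs were at the floor, this value depends on it, and was -8.89 with no floor and -2.71 with the higher floor. This group stood above the next, mesoderm (8.06 ± 2.21), by more than the pooled SD, and no other neighbours of Fabp7 did.

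In that EHF comparison, 3 of 5 genes were lower in PGCs by at least 1 unit, as were 5.54% of all genes: Fabp7, Nefm (-2.49) and Nefl (-1.17). Mbp was the 1 gene of 5 that was higher, as were 6.94%, by 4.39 (7.66 with no floor, 2.36 with the higher floor), at least 11.997-fold. As the mean of all probe sets the Mbp difference was 0.87, and it lay between 0 and 1.62 with each of its other probe sets. Mbp and Fabp7 did not overlap between the groups, which held for 1.79% of genes upward and 1.5% downward. The 4 Blimp1+ Hoxb1+ cells weigh heavily here. The Nefl value was -0.30 without their replicate 5, -0.77 without replicate 6 and -1.81 without replicate 7 or 8, and with the second Nefl probe set it was -2.73. It was -0.80 with the higher floor. Leaving out cells with Xist gave -0.02 for Nefl and -1.64 for Nefm.

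At E/MB, PGCs exceeded Blimp1+ Hoxb1+ cells in Mbp by 2.43 (at least 2.72-fold), 1 of 5 beside 5.21% of genes. They were lower in Nefm (-1.53) and Nefl (-1.02), 2 of 5 beside 5.52%, and the Nefl value was -0.44 without Blimp1+ Hoxb1+ replicate 3, -0.93 without replicate 1, and -0.87 without PGC replicate 2, 3, 6, 7 or 8. With the higher floor the values were 0.90 for Mbp, -0.78 for Nefm and -0.17 for Nefl, and between medians Nefm was -0.21. Mbp was 0.53 as the mean of all probe sets. Against mesoderm, E/MB PGCs were higher in Mbp (at least 2.45-fold), 1 of 5 beside 8.43%, and lower in Nefl (-1.28), 1 of 5 beside 3.62%. The Mbp difference of 2.43 was 0.90 with the higher floor and 0.53 as the mean of probe sets. The Nefl value was -0.97 without mesoderm replicate 8, -0.57 with the higher floor, -0.99 with the second probe set and -2.73 between medians. The median of broadly detected genes stood at 0.16 in this comparison, and at 1.37 once arrays were scaled to the hybridisation controls, which made the Nefl value -0.23. Fabp7 differed little from either group at this stage (0.03 and -0.55).

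The knockout comparisons ask how the genes stand in cells that switched on the Blimp1 locus without making Blimp1. At LS/0B, knockout cells and wild-type precursors differed by under 1 unit in all 5 genes, and 1.06% of all genes were higher and 0.39% lower. Nefl was 9.26 ± 1.66 in knockout cells and 9.21 ± 1.23 in precursors, and Nefm 10.23 ± 1.34 and 10.34 ± 1.84 (SD over 20 and 17 cells). Mbp passed in 0 of 20 knockout cells and 3 of 17 precursors.

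At E/MB Nefl and Nefm were found in more knockout cells than PGCs, and Mbp was detected in PGCs and in no knockout cell. Knockout cells were not chosen by stella as PGCs were, so genotype and choice of cells cannot be told apart. Mbp signals in the 12 knockout cells ran from 4.94 to 17.9, and 0 of 12 passed, against 6 of 8 PGCs, a difference of -2.43 (at least 2.44-fold lower) that was -0.90 with the higher floor. Over both stages 0 of 32 knockout cells passed, which allows a share of up to 9.38%, again as 3 counts of the total. Nefl passed in 10 of 12 knockout cells, with a median of 773 and a highest of 3113, and in 3 of 8 PGCs, a difference of 2.20 with overlapping groups, which was 1.17 with the higher floor and 3.46 between medians. Nefm passed in 12 of 12 knockout cells, from 279 through 1479 to 5699, and in 5 of 8 PGCs, a difference of 1.22. That difference was 0.78 without PGC replicate 2 or 6, 0.80 without replicate 7, and -0.05 as a difference of medians, and 0.48 with the higher floor. Higher by at least 1 unit were 2 of 5 genes, beside 4% of all genes, and lower 1 of 5, beside 3.61%. Nes (-0.05) and Fabp7 (0.06) hardly differed in mean. From LS/0B to E/MB the knockout cells differed by under 1 unit in all 5 genes, where 0.544% of genes were higher and 0.676% lower.

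Other genes of the families these 5 belong to were read from lists chosen with earlier results known. Of 13 myelin and oligodendrocyte genes measured, 4 passed in no cell, namely Mag, Mog, Mal and Pmp22, all parts of the myelin membrane. In E8.25 PGCs relative to PS epiblast, 0 of 13 were higher by at least 1 unit (4.9% of all genes) and 1 was lower (5.12% of all genes), Olig1 (-2.87), an oligodendrocyte transcription factor that passed in 2 of 8 E8.25 PGCs and 6 of 8 PS cells. The list's median difference was -0.06, beside 0 over all genes. Mbp was thus high in PGCs in which Mag and Mog were not detected. Other genes of the list were detected in PGCs. Sox10 passed in 8 E/MB, 6 EHF and 6 E8.25 PGCs, at means of 7.09, 7.04 and 7.24. Myrf passed in 6, 7 and 5 PGCs of the same stages. Neither gene was particular to PGCs. Sox10 passed in 49 cells over all groups, with a mean of 7.22 in PS epiblast, and these means lie close to the detection limit. Myrf passed in 93 cells, at means of 8.25 in PS epiblast, 7.86 in LS/0B and 8.25 in E/MB knockout cells. Its means in E/MB, EHF and E8.25 PGCs were lower, at 7.40, 7.34 and 7.26. In E/MB knockout cells relative to PGCs none of the 13 passed 1 unit, where 4% of all genes were higher and 3.61% lower.

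Among 13 other intermediate filament genes, 1 was higher and 1 lower in E8.25 PGCs than in PS epiblast, beside 4.9% and 5.12% of all genes. Vim, the vimentin of mesenchymal cells, averaged 9.74 ± 1.53 in E8.25 PGCs and 8.53 ± 0.83 in PS cells. Lmnb1, a nuclear lamin, averaged 7.58 ± 0.63 and 8.97 ± 0.53 in the same groups. Ina, the neuronal alpha-internexin that assembles with neurofilaments, did not share the low level of Nefl in PGCs: it passed in 7 of 8 E8.25 PGCs (9.38 ± 1.39) and 8 of 8 PS cells (9.29 ± 0.91). Its level was lower in LS/0B precursors (6.97 ± 1.07), LS/0B knockout cells (6.96 ± 0.93) and Blimp1+ Hoxb1+ cells (6.34 ± 0.41 at E/MB, 6.13 at EHF). Ina passed in 1 of 12 E/MB knockout cells (6.41 ± 0.61) and 7 of 8 E/MB PGCs (9.45 ± 1.60), a difference of -3.04, opposite in sign to Nefl and Nefm. In the same comparison 1 of the 13, Ina, was lower and 3 were higher, beside 3.61% and 4% of all genes. The higher ones were the keratins Krt8 (2.62) and Krt18 (1.79) of simple epithelia and Lmnb1 (1.07). Nefh, the heavy neurofilament subunit, passed in 2 cells, and Gfap and Synm in 0.

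Of 11 fatty acid and retinoid binding protein genes, 1 was lower and 1 higher in E8.25 PGCs than in PS epiblast, beside 5.12% and 4.9% of all genes. Fabp5, the epidermal form, was lower in E8.25 PGCs (7.79 ± 1.81) than in PS epiblast (11.73 ± 0.47), a difference of -3.94, and Crabp1, which binds retinoic acid, was higher, by 2.42. In E/MB knockout cells relative to PGCs 3 of the 11 were higher, beside 4% of all genes, namely Fabp5 (2.45), Crabp2 (2.36) and Crabp1 (1.28). EHF PGCs were lower than EHF Blimp1+ Hoxb1+ cells in the same 3 genes, Crabp1 (-3.39), Fabp5 (-2.17) and Crabp2 (-1.48), 3 of 11 beside 5.54% of all genes, and Fabp7 stood in the same direction there.

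Of 14 neural progenitor genes measured, 2 were higher and 2 lower in E8.25 PGCs than in PS epiblast, beside 4.9% and 5.12% of all genes. Sox2 and Sox3, SOX family factors that also belong to pluripotent and germ cells, were higher in E8.25 PGCs than in PS epiblast (1.81 and 2.27), and the RNA binding protein gene Msi1 and the membrane protein gene Prom1 were lower (-2.15 and -1.33). In E/MB knockout cells relative to PGCs, Sox2 was -4.93 and Sox3 -3.18 while Msi1 was 1.83. Of 18 neuronal genes 1 was higher and 2 lower in E8.25 PGCs than in PS cells, counts near the 4.9% and 5.12% of all genes. The higher gene was the transcription factor gene Neurod1 (1.14), named after its value was seen, and the lower ones were Stmn2 (-1.52), a growth cone protein gene, and Uchl1 (-1.39), a neuronal ubiquitin hydrolase gene. Of 9 glial genes, 0 passed 1 unit there. Sox1, Pax6, Zic1 and Six3, which define early neural plate and forebrain, passed in 1 cell each. Hes5, the remaining neuroectoderm marker, went the other way and passed in 21 cells. These included 3 E/MB, 7 EHF and 3 E8.25 PGCs and 0 PS epiblast cells. Of the 5 neuron markers Snap25 passed in 0 cells, while Stmn2 and Elavl3 passed in at least 75% of cells of some group. The summed signal of the 5 neuroectoderm markers ran from 163 to 279 in E8.25 PGCs and from 166 to 288 in PS epiblast.

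**Figure D5:**
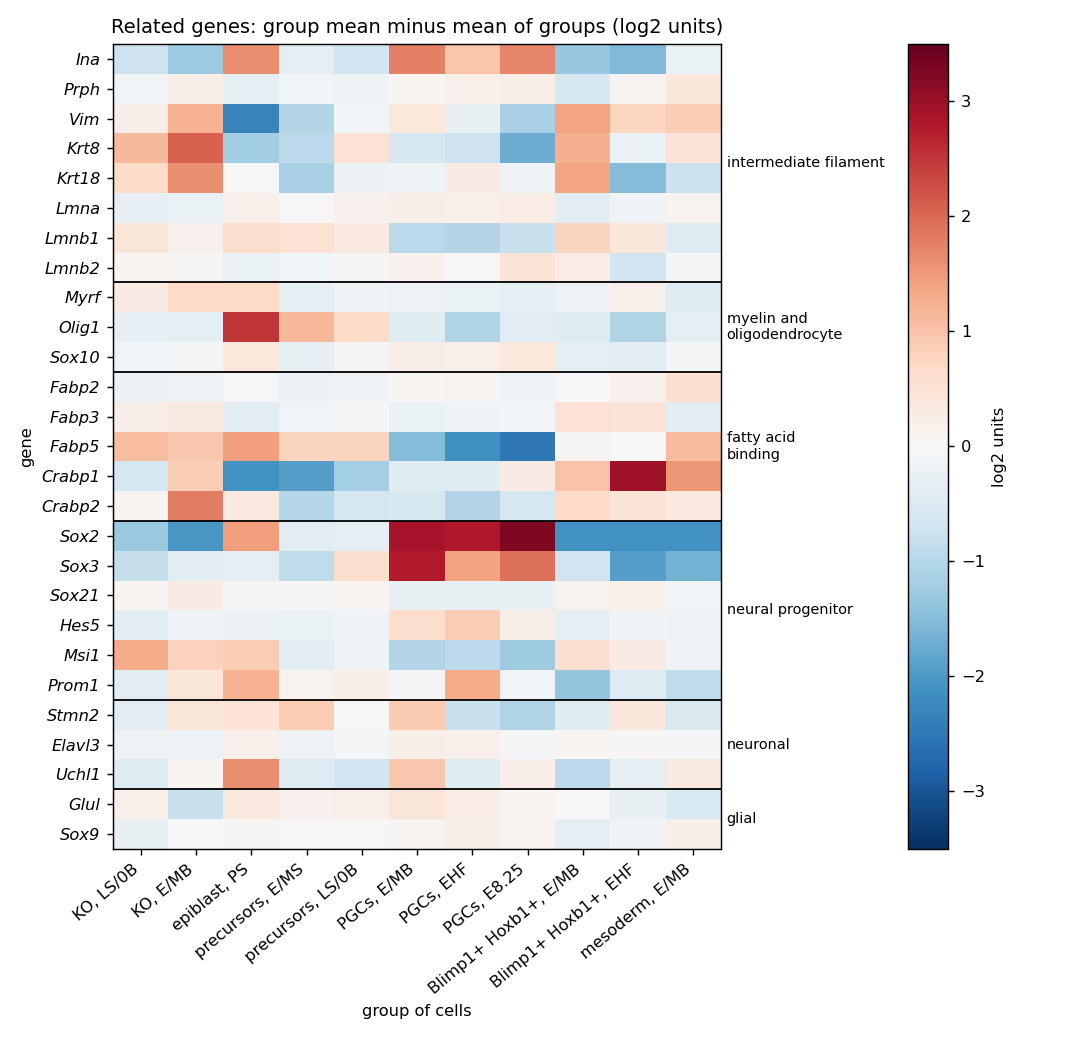
Group mean of floored log2 signal minus the mean of the 11 group means (colour, log2 units) for the 27 listed genes that passed the limit in at least 75% of cells of some group; rows are genes in their lists and columns groups. Ina is high in PS epiblast and PGCs and low in knockout cells, Fabp5 and Msi1 are low in PGCs, and Sox2 and Sox3 are high in them.

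The 5 genes most like each member were taken by the correlation of log2 signal over all cells, which follows group means as well as single cells. For Mbp these were Dppa3 (r = 0.85), the stella gene by which PGCs were chosen, Pygl (0.84), Npnt (0.83), Syt2 (0.82) and Slc40a1 (0.80). Within groups the same correlations were between -0.02 and 0.32, well below those over all cells. For Nefl they were Nefm (0.63), Thbs2 (0.59), Prps1 (0.57), Wfdc2 (0.55) and Dnmt3b (0.55), and for Nefm they were Nefl, Gm34344 (0.53), Ctrb1 (0.52), Myh10 (0.52) and S100a10 (0.51). For Nes they were Depp1 (0.72), Dnm3 (0.72), Pou2f2 (0.71), Sprr2d (0.68) and Fam71f1 (0.68). The Nes probe set used here lay close to background and did not follow the second one, so these correlations carry little information on the Nes transcript. For Fabp7 they were Cdx4 (0.52), Gsdme (0.47), S1pr3 (0.46), Hoxa10 (0.45) and Htra1 (0.44). Cdx4, a posterior homeobox gene, passed in 4 of 4 EHF Blimp1+ Hoxb1+ cells, 5 of 10 mesoderm cells and, among PGCs, 1 E/MB and 1 EHF cell.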

How the data were processed

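Each deposited file value is an array intensity for 1 probe set in 1 cell, which the authors computed with MAS5, as the submitters' processing notes record. Its version, its scaling target and the handling of low values are unknown here. Of all values 15.3% were at the lowest value of 1, and 1 was missing. No 2 cells had identical values (0 pairs), and trimmed means (2% each side) ranged from 131 to 207. Per the labels' protocols, cDNA of a picked cell was amplified by PCR and labelled for 1 array.

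Of 45101 probe sets, the 34945 that the platform annotation pairs with 1 symbol were used, giving 18193 genes; 932 had several symbols, 9160 were unnamed and 64 were controls. The background set held 126 probe sets for odorant, pheromone and taste receptors and hair keratin-associated proteins. Its 90th percentile (median over cells) served as the floor and its 95th percentile in a cell as the detection limit. A gene was read by its probe set of highest mean log2 signal. Since a group is 1 sample, differences of mean floored log2 signal, SDs over cells, counts and exact 95% intervals are given without a test. A fold bound sets the brighter group's mean against the detection limits of the dimmer one. The number of arrays limits the precision. A difference of 1 log2 unit or more was counted and read against the share of all genes.

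The members and all lists were chosen with earlier results of these data known. Genes named are the members, the listed genes that were detected in at least 75% of cells of some group and differed by at least 1 unit (at most 4 for a list and comparison), the markers, and the 5 genes most correlated with each member among 9338 eligible ones. Nefh, Neurod1, Abca4 and Ppp2cb were named after their values were seen. Python 3.11.15, numpy 2.4.6, pandas 2.3.3, scipy 1.17.1 and matplotlib 3.10.9 were used, and the computation was tested on simulated data. Alternatives covered the floor, detection limit, probe sets, scaling, medians, single cells left out and cells with Xist. Leaving out cells with Xist was not possible for contrasts with PS epiblast, where every cell had Xist.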

Additional observations from a re-analysis of the deposited data

Results flagged for a closer look

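In groups of 4 to 10 cells, 32 sets of values were examined for a cell far from the others of its group, and 2 were found. A chance rate of about 1 in 20 had been set for this, but it does not hold for values tied at the floor. Where all other cells are at the floor, any cell above it is picked out, so nothing is read from the count. Fabp7 in EHF PGC replicate 3 had 9.26 log2 units (signal 614), with the other 7 cells at the floor. Nes in E/MB Blimp1+ Hoxb1+ replicate 1 had 6.63 log2 units (signal 98.9), below the other 3 cells.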

How the results depend on the processing

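No paired analysis was possible because the results come from no test and replicate numbers only name cells. Leaving out 1 cell at a time moved no difference by more than the spread between cells; the E8.25 PGC minus PS epiblast difference kept between 4.41 and 4.603 for Mbp, -5.52 and -5.31 for Nefl and -1.01 and -0.59 for Fabp7. For Mbp that difference (4.52) was 7.58 with no floor and 2.48 with a higher floor. It was 0.69 as the mean of all probe sets, 0.16 with 1419646_a_at, 0.22 with 1425263_a_at, 0.31 with 1433532_a_at, 0 with 1436201_x_at and 1451961_a_at, 0.024 with 1454651_x_at and 0.25 with 1456228_x_at. The E/MB knockout minus PGC difference of Mbp (-2.43) was -4.76 with no floor, -0.90 with the higher floor and -0.53 as the mean of probe sets. In the same order of probe sets it was -0.13, -1.14, -0.29, 0, 0, 0 and -0.24. The EHF minus E/MB PGC difference of Mbp (1.96) was -0.11 with 1419646_a_at. For Nefl, E8.25 PGCs minus PS epiblast (-5.39) was -6.52 with no floor, -3.36 with the higher floor, -4.71 as the mean of probe sets and -4.02 with 1454672_at. For Nefm (-3.76) it was -6.29 and -2.24 with no floor and the higher floor, and the E/MB knockout minus PGC difference (1.22) was -0.053 between medians. For Nes (0.01) it was -0.41 as the mean of probe sets, 0.20 scaled to hybridisation controls and -1.24 with 1449022_at; for Fabp7 (-0.88) it was -4.00 with no floor. Detection at the 99th percentile moved 16 of the shares of cells beyond their intervals and left 39 within. All 10 sets of most similar genes changed with the correlation over group means or within groups. Signals near background limit Nes and the dim Mbp probe sets; the cause of these moves was not tested.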
